A study of Mus musculus with 7 samples.

Results

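Syntaxins are the membrane-anchored SNARE proteins that sit on a target membrane and, by zippering with SNAREs on an arriving vesicle, pull the membranes together until they fuse. Each compartment of the secretory and endocytic system has its own syntaxins, and in pancreatic beta cells those of the plasma membrane carry out the last step of insulin release. The 10 genes described here, Stx1a, Stx3, Stx4a, Stx5a, Stx6, Stx7, Stx8, Stx11, Stx12 and Stx16, were taken by symbol from a table of 23329 genes, as syntaxins of the plasma membrane and endosomes. Stx5a is known mainly from the Golgi, so the label fits that gene less well. The genes were selected by symbol, but with earlier fold changes of IL1B against vehicle in these libraries known, so they count as chosen by those values. Their fold changes and adjusted p-values are therefore a description of these libraries, and support nothing further.

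RNA was measured in Beta-TC6, a line of mouse insulinoma cells that still makes and secretes insulin, in wild-type cells given IL1B, the cytokine interleukin-1 beta (n = 3 libraries), and in wild-type cells given vehicle (n = 4). In both groups the medium was DMEM with fetal bovine serum at 15%, and 10 µM forskolin, which raises cAMP, was applied for 1 h to synchronise the cells. The sources used here do not give the dose and duration of IL1B or whether libraries came from separate cultures, so the spread behind each p-value is that between these libraries and may be technical. The cells are 1 tumour line, and no primary islets enter these values.

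Libraries held 6007723 to 6969745 counts with IL1B and 5335607 to 7513934 with vehicle. Nfkbia, the NF-kB inhibitor gene used here as a check of the response, stood at 460 to 496 CPM with IL1B and 29.5 to 33.04 CPM with vehicle, with every IL1B library above every vehicle library. CPM are TMM-scaled counts per 1000000, taken over tested genes. Of 10 beta-cell markers 9 passed the low-count filter, and Ins2 averaged 22372 ± 715 CPM with IL1B and 21183 ± 1599 CPM with vehicle (SD, n = 3 and 4). The edgeR test described below called 2 of these 9 lower and 0 higher. The 2 were Pdx1 (log2 fold change -0.56, edgeR adjusted p = 3e-07) and Mafa (log2 fold change -0.47, edgeR adjusted p = 7.0e-06). Ins2 was not called (edgeR adjusted p = 0.42). Ucn3, a marker of mature beta cells, had 4 to 6 counts per IL1B library and 7 to 8 counts per vehicle library. A pair of libraries stood apart. Vehicle library 2 deviated from its group with transcript length (Spearman rho of -0.55 over 11266 genes, where libraries 1, 3 and 4 gave 0.22 to 0.30). Each deviation was taken from the mean of all libraries of the group. The positive values of libraries 1, 3 and 4 are therefore not independent of library 2. IL1B library 2 differed more from IL1B libraries 1 and 3 (chi-square per degree of freedom 4.04 and 2.79) than those did from each other (1.71).

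IL1B-treated cells had far more Stx11 transcript than vehicle cells and about 1.5-fold more Stx3 and Stx6, while the other 7 syntaxins did not pass the threshold. Over all 12480 tested genes, edgeR's quasi-likelihood test (Benjamini-Hochberg adjusted p below 0.05) called 11.0% in either direction, 7.76% higher and 3.25% lower. Among the syntaxins it called 3 of 10 higher and 0 lower, and so did DESeq2 (which called 6.67% of all genes higher and 2.23% lower) and limma-voom (7.69% higher and 3.09% lower). The same 3 genes were the members whose IL1B and vehicle libraries did not overlap on the upper side, as in 12.1% of all tested genes. Since this comparison was known when the genes were chosen, nothing is read from these shares. All 10 genes lay over the filter's cutoff of 1.64 CPM in each of the 7 libraries, so none entered through the IL1B group alone. In bulk RNA, fewer cells with a transcript and less transcript per cell cannot be told apart.

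**Figure D1:**
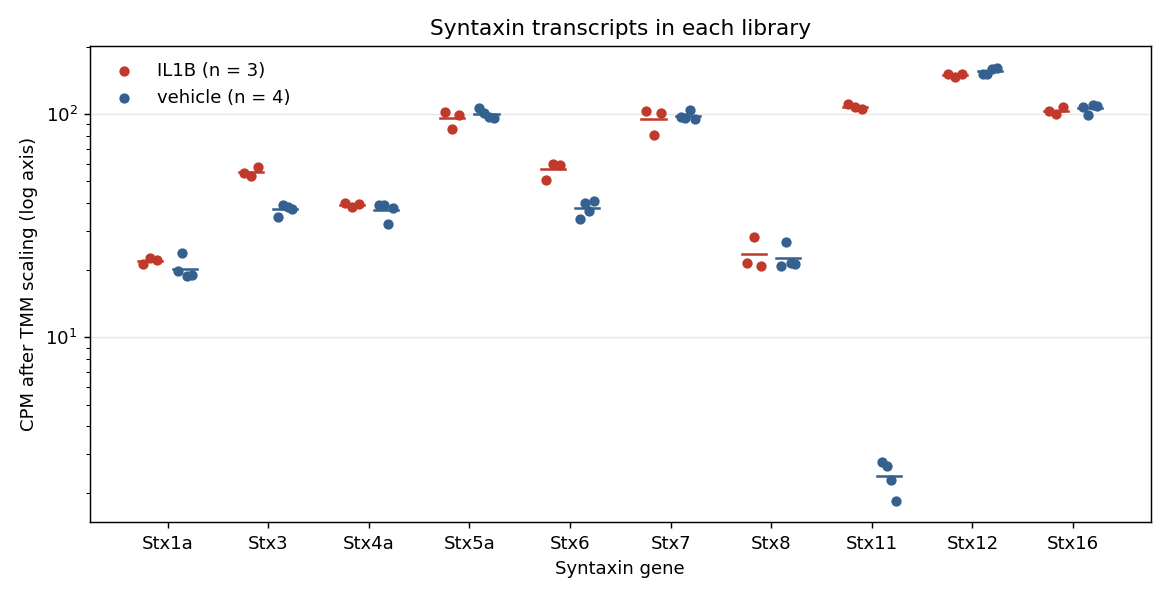
Level of each syntaxin in every library, as CPM after TMM scaling on a log axis; points are libraries and bars group means, with IL1B (red) left of vehicle (blue). Stx11 lies between 106 and 111 CPM in IL1B libraries and between 1.86 and 2.76 CPM in vehicle libraries, and Stx3 and Stx6 also separate without overlap.

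Among the plasma membrane syntaxins, Stx11 moved furthest. Stx11 encodes a syntaxin with no membrane-spanning segment that is best known for granule release by cytotoxic lymphocytes, where its loss in humans causes familial haemophagocytic lymphohistiocytosis. The gene lies on chromosome 10 (12938209 to 12964298, minus strand, GRCm38). Its libraries held 760, 648 and 628 counts with IL1B and 21, 17, 13 and 10 counts with vehicle. As CPM these were 111, 108 and 106 with IL1B, against 2.76, 2.66, 2.29 and 1.86 with vehicle. Every IL1B library was far above every vehicle library, and the lowest counts in vehicle were still above 0. Stx11 averaged 108 ± 2.43 CPM with IL1B and 2.39 ± 0.41 CPM with vehicle, 44.1-fold higher (95% interval 37.4 to 52.0; log2 fold change 5.46, SE 0.11, edgeR adjusted p = 1.28e-17). Ranked by fitted fold change it stood at place 14 of the 12480 tested genes. The fold held without the second library of each group (log2 fold change 5.51).

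Because Stx11 is known from white blood cells, markers of those cells stand beside it. Of 8 leukocyte markers, 7 stayed below the filter. Counts summed over all 8 were 22 to 35 per IL1B library and 18 to 31 per vehicle library, ranges that overlap. Ptprc, which encodes the pan-leukocyte antigen CD45, had 1 to 4 counts with IL1B and 0 to 4 counts with vehicle. Itgam had 1 to 2 counts with IL1B and 0 in all 4 vehicle libraries. Lyz2 leaned the other way, with 0 to 2 counts with IL1B and 2 to 4 with vehicle. Cd3e had 8 to 9 counts with IL1B and 4 to 10 with vehicle. Cd68, the 1 marker tested, averaged 1.87 ± 0.81 CPM with IL1B and 1.70 ± 0.79 CPM with vehicle (edgeR adjusted p = 0.90). Endothelial markers summed to 20 to 24 counts per IL1B library and 8 to 15 counts per vehicle library, without overlap. Of these, only Pecam1 separated, with 9 to 17 counts with IL1B and 3 to 6 with vehicle. Cdh5 (4 to 9 counts with IL1B, 4 to 12 with vehicle) and Kdr (0 to 2 with IL1B, 0 to 1 with vehicle) overlapped. The part of endothelial cells in the result was not tested. Stromal markers summed to 19 to 25 counts with IL1B and 17 to 33 with vehicle, and exocrine and duct markers to 30 to 42 with IL1B and 21 to 46 with vehicle, with Prss1 and Cpa1 at 0 in all 7 libraries.

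Stx3 rose as well, by much less. It encodes a plasma membrane syntaxin, apical in epithelial cells, that in beta cells also takes part in the fusion of newly arriving insulin granules. The gene lies on chromosome 19 (11775118 to 11819403, minus strand). It stood at 54.5, 52.9 and 58.03 CPM with IL1B, against 34.6, 38.99, 38.4 and 37.5 CPM with vehicle. The lowest IL1B library was above the highest vehicle library. Stx3 averaged 55.1 ± 2.64 CPM with IL1B and 37.4 ± 1.94 CPM with vehicle, 1.48-fold higher (log2 fold change 0.56, SE 0.08, edgeR adjusted p = 4.0e-05). Leaving out each library in turn kept its adjusted p between 3.4e-05 and 7.7e-04.

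The syntaxins most often linked to insulin release did not pass. Stx1a, which pairs with SNAP-25 and VAMP2 at docked granules, stood at 21.3, 22.8 and 22.1 CPM with IL1B, against 19.7, 23.8, 18.9 and 18.9 CPM with vehicle. The groups overlapped through vehicle library 2, which was the highest of all 7. Its log2 fold change was 0.11 (SE 0.11, 95% interval -0.11 to 0.34, edgeR adjusted p = 0.61), so a rise of up to 1.26-fold lies within the interval. Without vehicle library 2 the groups did not overlap and the log2 fold change was 0.20, which did not pass (edgeR adjusted p = 0.23). Stx4a, the mouse gene for syntaxin 4, which serves insulin release in beta cells and GLUT4 delivery in fat and muscle, averaged 39.2 ± 0.82 CPM with IL1B and 37.02 ± 3.34 CPM with vehicle. Its log2 fold change was 0.08 (95% interval -0.11 to 0.26, edgeR adjusted p = 0.67). The strand setting of the counting is not given, so reads from the opposite strand may be counted with this gene.

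**Figure D2:**
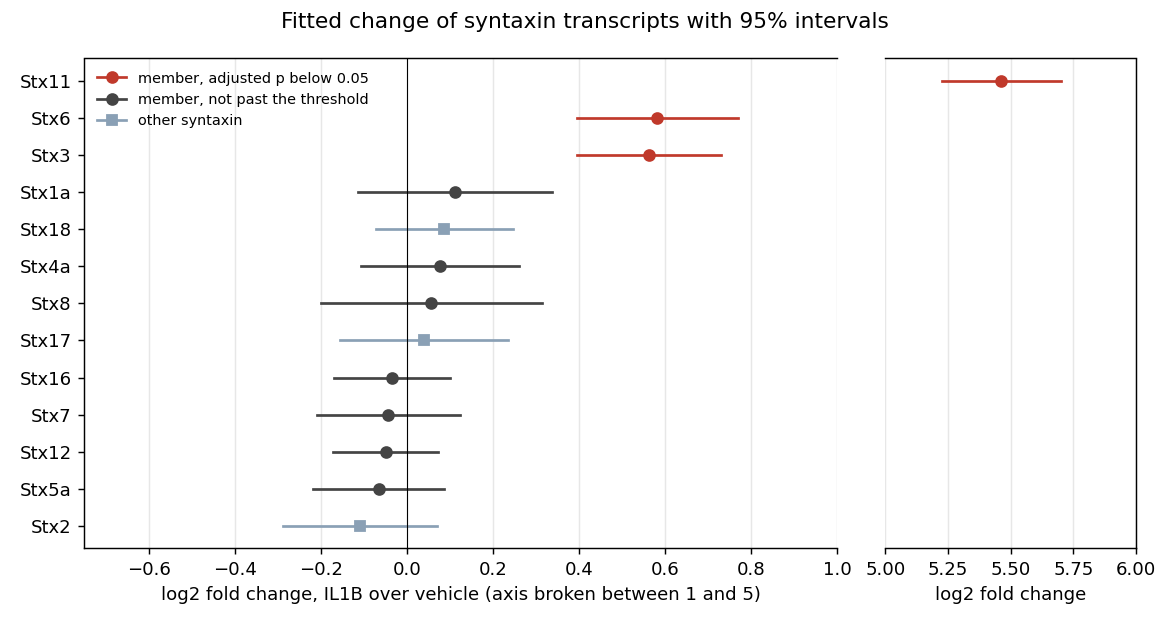
Fitted log2 fold change of IL1B over vehicle with 95% intervals from edgeR, for the 10 syntaxins described here (circles) and 3 other syntaxins (squares); the axis is broken between 1 and 5. Stx11, Stx6 and Stx3 have intervals above 0, and the intervals of the other 10 genes shown include 0.

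Of the syntaxins of the endosomes and trans-Golgi network, Stx6 rose. Stx6 encodes a SNARE of the trans-Golgi network and early endosomes that acts in transport between them and in the maturation of secretory granules. It lies on chromosome 1 (155158715 to 155208256, plus strand). It stood at 50.6, 59.7 and 59.4 CPM with IL1B, against 33.8, 39.8, 36.8 and 40.8 CPM with vehicle. All 3 IL1B libraries were above all 4 vehicle libraries, and IL1B library 1 was the lowest of its group. Stx6 averaged 56.5 ± 5.18 CPM with IL1B and 37.8 ± 3.15 CPM with vehicle, 1.497-fold higher (log2 fold change 0.58, SE 0.09, edgeR adjusted p = 1.1e-04). Its adjusted p stayed between 9.4e-05 and 0.0017 with each library left out in turn.

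Stx16, the trans-Golgi syntaxin that forms a complex with Stx6, had a log2 fold change of -0.03 (95% interval -0.17 to 0.10, edgeR adjusted p = 0.82). It stood at 103.6, 99.7 and 107.5 CPM with IL1B, against 107.8, 98.8, 109.5 and 108.4 CPM with vehicle, and the groups overlapped. The late-endosomal pair Stx7 and Stx8 did not pass either. Stx7 averaged 94.96 ± 12.3 CPM with IL1B and 97.98 ± 4.12 CPM with vehicle, where IL1B library 2, at 80.8 CPM, was below all the others. Stx8 stood at 21.4, 28.3 and 20.9 CPM with IL1B, against 20.8, 26.6, 21.5 and 21.4 CPM with vehicle. The second library was the highest of each group for Stx8, and those are the libraries that stood apart above; the part of that in this gene was not tested. Stx12, a syntaxin of recycling endosomes, averaged 150.2 ± 2.49 CPM with IL1B and 155 ± 5.45 CPM with vehicle.

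Stx5a, the syntaxin of transport between the endoplasmic reticulum and the Golgi, averaged 95.8 ± 8.85 CPM with IL1B and 100.2 ± 4.91 CPM with vehicle (log2 fold change -0.07, 95% interval -0.22 to 0.09, edgeR adjusted p = 0.66). Over the 7 syntaxins that did not pass, fitted log2 fold changes ran from -0.07 to 0.11, with 3 above and 4 below 0. Their 95% intervals reached from a 0.86-fold to a 1.26-fold change, and 0 of the 7 had an unadjusted edgeR p under 0.05.

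Dividing CPM by the length of the longest annotated transcript allowed levels to be set side by side between genes. In IL1B cells the order, in CPM per 1000 bases, was Stx12 (51.2 ± 0.85), Stx5a (31.8 ± 2.94), Stx7 (27.6 ± 3.58), Stx4a (26.9 ± 0.56), Stx16 (26.8 ± 1.00), Stx11 (25.9 ± 0.58), Stx3 (17.97 ± 0.86), Stx6 (12.3 ± 1.13), Stx1a (10.2 ± 0.35) and Stx8 (5.36 ± 0.93). In vehicle cells it was Stx12 (53.0 ± 1.86), Stx5a (33.2 ± 1.63), Stx7 (28.5 ± 1.199), Stx16 (27.5 ± 1.28), Stx4a (25.4 ± 2.29), Stx3 (12.2 ± 0.63), Stx1a (9.39 ± 1.08), Stx6 (8.24 ± 0.69), Stx8 (5.14 ± 0.62) and Stx11 (0.57 ± 0.10). Of the 9 pairs of neighbours in the order, 4 had overlapping library ranges in IL1B cells, namely every step from Stx5a down to Stx11. In vehicle cells 3 pairs overlapped, Stx7 with Stx16, Stx16 with Stx4a, and Stx1a with Stx6. By longest transcript, vehicle cells thus spanned a 92.4-fold range of levels per length, with Stx11 at the foot, and IL1B cells a 9.56-fold range, with Stx8 at the foot. Stx11 stood last in vehicle cells with each of 3 length measures, and in IL1B cells at place 6 by longest transcript, 3 by merged exons and 8 by median transcript length. The order of the other genes depended on the length used: with merged exons 6 of 10 genes kept their place in vehicle cells, and with the median transcript 2 did. In IL1B cells the median transcript put Stx1a (15.9 CPM per 1000 bases) at the foot, below Stx8 (21.3).

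**Figure D3:**
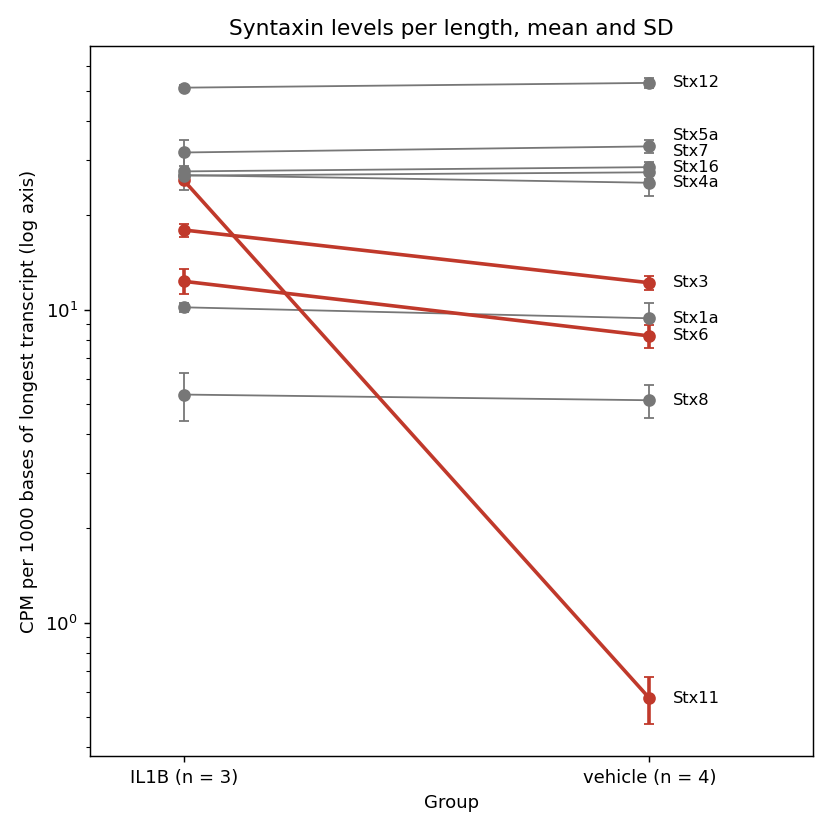
Mean level per 1000 bases of the longest transcript for each syntaxin, with SD, in IL1B (left) and vehicle libraries (right) on a log axis; lines join the same gene and red marks the 3 genes called higher. Stx11 stands at 25.9 with IL1B and 0.57 with vehicle, while the 7 grey lines are nearly level.

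Summed over the 10 genes, the level per length of the longest transcript was 227 to 241 CPM per 1000 bases in IL1B libraries and 201 to 204 in vehicle libraries. The sums and shares here rest on that length alone, and other lengths would give other values. Without Stx11 the sums were 201 to 216 with IL1B and 201 to 204 with vehicle, and the groups overlapped. Stx11 took 10.99% ± 0.42 of the family's summed level with IL1B, against 0.28% ± 0.05 with vehicle. Stx3 took 7.61% ± 0.22 with IL1B and 5.998% ± 0.31 with vehicle, and Stx6 5.23% ± 0.58 with IL1B and 4.06% ± 0.32 with vehicle. Shares of the sum move together by construction, so the lower share of Stx12 (21.7% ± 0.35 with IL1B, 26.1% ± 0.98 with vehicle) stands beside a level of its own that did not pass the test.

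The promoters of the 3 genes called higher are shown because NF-kB and circadian enhancers are named in the title of the series. Whether the 3 genes are regulated together was not tested. RefSeq promoter windows (GRCm38.p6, 250 bases before and 50 after each start) were found for all 10 genes, 13 windows in all. The stretches below are on the gene's own strand, end before the annotated transcripts, and have motif matches in capitals; Stx11 is chr10:12964299-12964509 (minus strand), Stx3 is chr19:11819404-11819653 (minus strand) and Stx6 is chr1:155158453-155158702 (plus strand).
Stx11: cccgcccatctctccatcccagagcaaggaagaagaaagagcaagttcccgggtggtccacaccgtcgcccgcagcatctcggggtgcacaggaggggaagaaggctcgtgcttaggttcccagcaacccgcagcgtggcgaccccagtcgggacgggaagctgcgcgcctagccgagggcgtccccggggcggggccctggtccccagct
Stx3: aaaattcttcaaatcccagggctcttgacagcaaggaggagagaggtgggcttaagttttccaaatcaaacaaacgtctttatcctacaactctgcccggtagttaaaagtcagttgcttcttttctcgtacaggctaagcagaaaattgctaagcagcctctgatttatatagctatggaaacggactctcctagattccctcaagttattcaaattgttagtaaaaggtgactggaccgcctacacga
Stx6: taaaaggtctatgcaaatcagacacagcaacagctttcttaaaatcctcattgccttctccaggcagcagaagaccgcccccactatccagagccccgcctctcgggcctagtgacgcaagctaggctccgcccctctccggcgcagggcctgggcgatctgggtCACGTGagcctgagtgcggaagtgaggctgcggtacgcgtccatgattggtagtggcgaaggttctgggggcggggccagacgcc

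The windows were searched on both strands, allowing overlaps, for the kB consensus bound by NF-kB, the E-box CACGTG used by clock factors and the cAMP response element TGACGTCA. The windows of Stx11 and Stx3 held none of these letters. The window of Stx6 held 1 E-box, from 85 to 80 bases before the start, shown in capitals above. Among the 10 genes, the 1 kB consensus match was in the window of Stx16 (GGGAGCTCCC, from 95 to 86 bases before the start), a gene that did not pass. Of 32851 mouse promoter windows of this length, 8.46% held the kB consensus, 7.15% the E-box and 1.79% the cAMP response element. A match is a description and not a binding site, and the absence of these letters in a window says nothing about the factors. The stretches before the start differ in base composition, with 70.0% G and C before Stx11, 42.0% before Stx3 and 61.2% before Stx6, against a median of 52.4% over all windows.

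The tested genes nearest to the 3 on the chromosome, picked after their values were seen, were mixed. Beside Stx11, Utrn (utrophin, 68843 bases away) had a log2 fold change of -0.04 and Sf3b5 (a splicing factor gene, 41044 bases away) of 0.04, and neither passed (edgeR adjusted p = 0.87 and 0.82). Beside Stx3, Patl1, an mRNA decay factor gene 92995 bases away, rose 1.29-fold (edgeR adjusted p = 0.0042), while Mrpl16, a mitochondrial ribosomal protein gene 157 bases away, had a 1.19-fold difference that did not pass (edgeR adjusted p = 0.084). Beside Stx6, the immediate early gene Ier5, 59078 bases away, rose 1.34-fold (edgeR adjusted p = 0.025) and the phosphate exporter gene Xpr1 did not pass (log2 fold change -0.05, edgeR adjusted p = 0.81). The call of Ier5 was lost without IL1B library 2 or 3 or vehicle library 1 (adjusted p = 0.141, 0.098 and 0.110), with both second libraries left out (adjusted p = 0.065) and with DESeq2 (adjusted p = 0.052); Patl1 kept its call in each of these. Mrpl16 passed as higher without vehicle library 2 (adjusted p = 0.030) and with both second libraries left out (adjusted p = 0.010), and Utrn passed as lower in that last fit (log2 fold change -0.16, adjusted p = 0.016).

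Of other syntaxin genes, Stx2 (plasma membrane), Stx17 (autophagosomes) and Stx18 (endoplasmic reticulum) gave no call. They had log2 fold changes from -0.11 to 0.09, and 0 of the 3 had an unadjusted edgeR p under 0.05; DESeq2 and limma-voom also called 0. Stx19 had 1 count in 1 IL1B library and 0 in the vehicle libraries. Stx18 averaged 63.6 ± 4.55 CPM with IL1B and 59.99 ± 3.05 CPM with vehicle, and Stx2 39.1 ± 3.43 CPM with IL1B and 42.3 ± 1.86 CPM with vehicle.

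Most of the genes listed as SNAREs and SNARE regulators that work with syntaxins were not called. The same held over all tested genes, of which 7.76% were called higher and 3.25% lower, so nothing is read from it. Of 9 SNARE partners at the plasma membrane and granules, 0 passed by edgeR, DESeq2 or limma-voom, and 1, Snap29, had an unadjusted edgeR p under 0.05; it passed as lower without vehicle library 4 (log2 fold change -0.36, edgeR adjusted p = 0.032). Their median was -0.07 on the log2 scale, against -0.0087 over all tested genes. Snap25, the partner of Stx1a, averaged 165 ± 14.5 CPM with IL1B and 179 ± 8.17 CPM with vehicle (edgeR adjusted p = 0.31), and the granule SNARE Vamp2 118 ± 12.5 CPM with IL1B and 121 ± 8.86 CPM with vehicle (edgeR adjusted p = 0.87).

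The list of endosomal and Golgi SNARE partners also holds genes of the endoplasmic reticulum, such as Sec22c below, which its label fits less well. Of its 13 tested genes 1 rose and 1 fell, with a list median of 0.01. Ykt6, a lipid-anchored SNARE of the Golgi and autophagosomes, stood at 243, 280.1 and 252 CPM with IL1B, against 218, 231, 225 and 213 CPM with vehicle, 1.17-fold higher (log2 fold change 0.22, edgeR adjusted p = 0.022). Leaving out vehicle library 1 or 4, or IL1B library 2 or 3, ended its call (adjusted p 0.063 to 0.125), as did total-count scaling (adjusted p = 0.0504). Sec22c, a Sec22-related gene of the endoplasmic reticulum, fell to 20.4, 18.95 and 19.9 CPM with IL1B, against 24.2, 24.9, 28.6 and 26.2 CPM with vehicle (log2 fold change -0.39, edgeR adjusted p = 0.014). That call was lost without vehicle library 3 or IL1B library 2 (both adjusted p = 0.056) and with DESeq2 (adjusted p = 0.0501). With both second libraries left out, Sec22a, a related gene, passed as higher (log2 fold change 0.32, edgeR adjusted p = 0.046).

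Of the 11 Sec1/Munc18-type and other syntaxin-binding genes reported here, 0 passed by edgeR, DESeq2 or limma-voom, with a median of -0.02 on the log2 scale. An unadjusted edgeR p under 0.05 was reached by 2 of them. Scfd1, a gene of this type that acts with Stx5a between the endoplasmic reticulum and the Golgi, averaged 167 ± 5.29 CPM with IL1B and 181 ± 4.93 CPM with vehicle (log2 fold change -0.12, edgeR adjusted p = 0.22). Stxbp6, the amisyn gene, averaged 8.21 ± 0.64 CPM with IL1B and 6.14 ± 0.25 CPM with vehicle (log2 fold change 0.41, edgeR adjusted p = 0.12). Of 14 tested genes for SNARE disassembly and tethering 0 passed by edgeR, DESeq2 or limma-voom. Nsf, the ATPase that takes spent SNARE complexes apart, and the tether gene Vps41 had an unadjusted edgeR p under 0.05, with log2 fold changes of -0.17 and -0.18. Nsf passed as lower without vehicle library 2 or IL1B library 1 and with both second libraries left out (edgeR adjusted p 0.027 to 0.031), and Vps41 with upper-quartile or total-count scaling and with both second libraries left out (edgeR adjusted p 0.035 to 0.043).

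**Figure D4:**
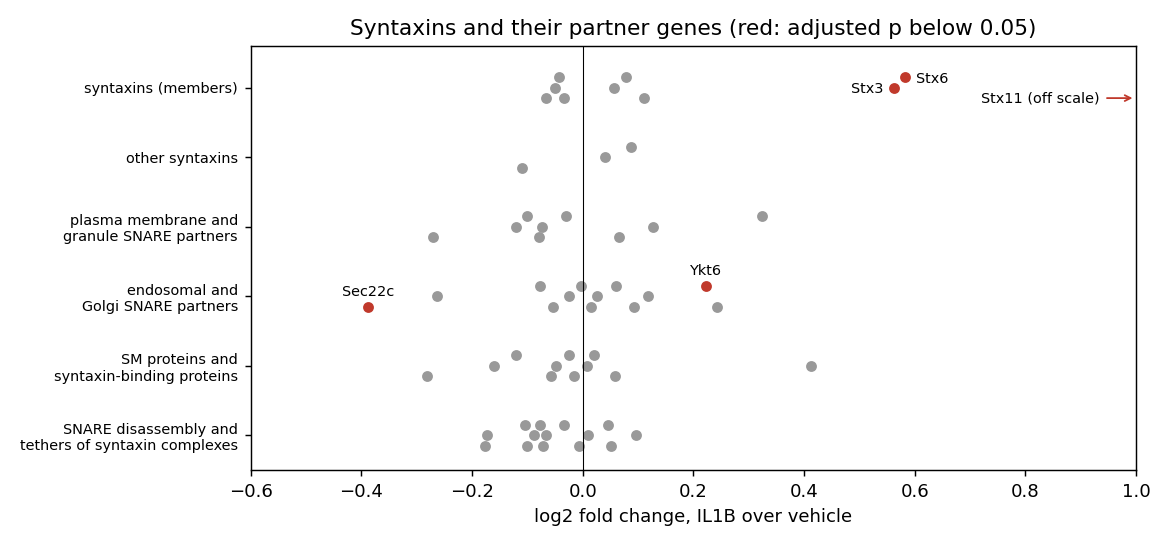
Fitted log2 fold change of IL1B over vehicle for the syntaxins and partner genes reported here, 1 point per gene and 1 row per list; red marks an adjusted p below 0.05, and Stx11 (5.46) lies beyond the axis. The called genes shown outside the 10 syntaxins are Ykt6 (0.22) and Sec22c (-0.39).

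The genes whose pattern was most like that of Stx3 were sought among 10901 others of at least 5 CPM, by Pearson's r of log2(CPM + 1) over the 7 libraries. The 5 nearest were the ubiquitin ligase gene Rchy1 (r = 0.995), the dihydroceramide desaturase gene Degs1 (r = 0.993), the mitochondrial calcium uptake regulator Ccdc90a (r = 0.991), the cytokine receptor kinase gene Tyk2 (r = 0.9902) and the tapasin gene Tapbp, of antigen presentation (r = 0.9899). The 7 points share 1 treatment contrast and the same library sizes, so the likeness includes the difference between the groups. Degs1 averaged 349 ± 20.1 CPM with IL1B and 216 ± 9.43 CPM with vehicle, and Tyk2 26.3 ± 1.37 CPM with IL1B and 16.2 ± 0.53 CPM with vehicle.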

How the data were processed

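RNA of 7 Beta-TC6 libraries was analysed from 1 table of raw counts per gene symbol that the authors deposited. Per the submitters' processing notes the build was mm10 and the named tools, with no roles, include STAR, RSEM, DESeq2 and R 4.1.0; the sources used here do not give the annotation, the strand setting or the treatment of multi-mapping reads. IL1B columns carry the numbers 1, 2 and 3 but the IL1B titles 1, 3 and 4, so these columns were tied to the group only, and library numbers are the table's own. All 9 within-group pairs differed beyond sampling noise (chi-square per degree of freedom 1.51 to 4.68).

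Counts were fitted in R 4.3.3 with edgeR 4.0.16 (TMM, filterByExpr, quasi-likelihood F test over all 7 libraries, no covariate), with p-values adjusted over the 12480 tested genes and a threshold of 0.05; standard errors come from the fold change and its F statistic. Alternatives were other scalings, filters and lengths, DESeq2 1.42.0, limma-voom (limma 3.58.1) and leaving out each library; a fit without the second library of each group was chosen after seeing the data. The members and lists were chosen with earlier results of these data known. Named genes are the 10 members, the called and up to 3 most abundant genes of each partner list, Nfkbia and the 5 genes most like Stx3; neighbouring genes, Stxbp6, Snap29, Sec22a and Vps41 were named after their values were seen. Coordinates and lengths are from GENCODE M21 (GRCm38, the assembly of mm10). No member shares 30% of its longest transcript at 95% identity with another gene (blastn 2.17.0). Protein sequences were not analysed here. Vamp7 was not used here, and some genes of the lists are not reported here.

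Among markers of other islet cells, the 3 tested alpha genes summed to 836 to 992 CPM with IL1B and 971 to 1093 CPM with vehicle. Only Irx2 was called lower, averaging 5.16 CPM with IL1B and 9.19 CPM with vehicle. Most of the sum was Ttr and Gcg, which were not called. Gcg averaged 267 ± 39.7 CPM with IL1B and 311 ± 14.7 CPM with vehicle (edgeR adjusted p = 0.089, and 0.023 to 0.42 with each library left out). Of the delta and PP list only Sst was tested, at 284 to 307 CPM with IL1B and 271 to 318 CPM with vehicle. Ppy, below the filter, had 0 to 2 counts with IL1B and 2 to 13 with vehicle. Of the beta-cell markers Pdx1 and Mafa fell.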

Additional observations from a re-analysis of the deposited data

Results flagged for a closer look

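Dixon's test set 1 vehicle library apart from its group in 2 of 12 genes (the 10 syntaxins and the 2 called partner genes), where chance gives about 1 in 20 (0.60 genes). Both were in vehicle library 2. Stx8 stood at 26.6 CPM there, against 20.8 to 21.5 CPM in the other vehicle libraries. Stx16 stood at 98.8 CPM there, against 107.8 to 109.5 CPM in the others. The trend of that library with transcript length is given above, and its part in these values was not tested.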

How the results depend on the processing

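With all 15 alternatives to the fit, Stx11, Stx3 and Stx6 stayed higher past the threshold and 0 of 10 syntaxins were lower. Folds that did not pass changed sign near 0: with each library left out, the log2 fold change ran from -0.12 to 0.0068 for Stx5a, -0.11 to 0.060 for Stx7 and -0.092 to 0.15 for Stx8. With both second libraries left out it was 0.0103 for Stx5a and 0.049 for Stx7. Over all genes 968 rose and 406 fell, with total-count scaling 844 and 556; the count of falls was 252 to 589 with each library left out (252 without IL1B library 3, 271 without IL1B library 2) and 676 with both second libraries left out. The cause was not tested. Of 10 places in the order of vehicle levels, 6 were kept with merged exon length and 2 with median transcript length, since these lengths themselves differ. No paired analysis was possible because the table's IL1B column numbers could not be tied to those of the sample titles, so no number pairs an IL1B library with a vehicle library. Low counts limit Stx11 in vehicle (61 counts over 4 libraries) and the markers of other cells.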
